A study of Homo sapiens with 7 samples.

Results

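The glycosyltransferases described here build, branch and cap the sugar chains of glycoproteins and glycolipids in the Golgi. They are the protein-coding genes of the deposited gene table whose symbols start with MGAT, GALNT, GCNT, B4GALT, B3GALT, B3GNT, FUT, ST3GAL, ST6GAL or ST8SIA. This gave 85 genes among 19799 protein-coding genes and 58174 genes in all. Within these prefixes, genes were taken by symbol alone and were chosen by no measured value. The family itself was chosen by measured values, namely the changes of MGAT5 and GCNT1 in the comparison reported below. This pair is therefore described by values without a p-value, and its place among the calls below is no evidence. The prefixes reach somewhat beyond branching and capping. They also take in the GALNT enzymes, which start O-glycans, and B3GALT6 and B4GALT7, which build the linker of proteoglycans.

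Total RNA was sequenced after depletion of ribosomal RNA from Huh-7 cells, an established line from a human hepatocellular carcinoma, to ask which transcripts depend on IGF2BP1. IGF2BP1 is an RNA-binding protein of fetal tissues and tumours that binds mRNAs in the cytoplasm. Cells received control siRNA (siC, 3 libraries) or siRNAs directed against IGF2BP1 (siIGF2BP1, 4 libraries) and were harvested 72 h after transfection. Both groups are transfected cultures of this 1 line, so the siC libraries show the line with IGF2BP1 present and not untransfected cells. Separate cultures are not stated for the libraries, and p-values then measure only the spread between these libraries, which may be technical.

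Libraries held 12826550 to 33212205 reads on genes. IGF2BP1, the targeted gene, stood at 81.9, 80.4 and 84.4 FPKM in siC and at 15.6, 15.7, 16.6 and 15.3 FPKM in siIGF2BP1, which is 19.2% of the siC mean (FPKM, fragments per kilobase of gene and per sequencing depth, is an abundance scaled to gene length and library size). Over all tested genes the siC replicate 3 library stood apart from the other siC libraries, with a Pearson r of 0.916 and 0.929 on log2 values across genes, against 0.971 between siC replicates 1 and 2. It also departed from them for several glycosyltransferases, and values without it are given beside the results that it moved most. All 8 hepatocyte markers examined, ALB and AFP among them, were above 1 FPKM. Of the markers of fibroblasts, endothelium and leukocytes, 4 averaged 1 FPKM or more, namely LYZ (147 to 162 FPKM in siC and 113 to 129 FPKM in siIGF2BP1), LUM, PECAM1 and COL1A2, while PTPRC, CD3E, CDH5, VWF, KDR, COL1A1 and DCN were at or near 0.

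N-glycans are trimmed to a short mannose core and then receive antennae from the MGAT enzymes, each of which adds N-acetylglucosamine (GlcNAc) at its own position. MGAT5 makes the β1,6 branch, which carries long chains of polylactosamine and is well known from tumour cells. Mucin-type O-glycans begin when a GALNT enzyme adds N-acetylgalactosamine (GalNAc) to serine or threonine, and GCNT enzymes then branch them into core 2 structures. B4GALT and B3GNT enzymes lengthen the antennae, and fucosyltransferases and sialyltransferases cap them. In hepatocytes, most secreted plasma proteins pass this route and leave with sialylated N-glycans.

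IGF2BP1 is known to shield bound mRNAs from microRNA-directed decay, with let-7 targets as the best studied case, and miR-122 is the abundant microRNA of hepatocytes. The mature forms of both are shown because sites for them occur in the 3′ untranslated regions (3′ UTRs) of some of the genes that differed most. Capitals mark the seed, bases 2 to 8 from the 5′ end, and the sequences are those of RefSeq on GRCh38.p14.
hsa-let-7a-5p: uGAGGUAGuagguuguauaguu
hsa-miR-122-5p: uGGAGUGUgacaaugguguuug

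Seed matches were searched as the letters CTACCTC for let-7 and ACACTCC for miR-122 on the sense strand of the 3′ UTR of each gene's canonical transcript in GENCODE v44 (hg38). The search was chosen after the expression values were seen. MGAT5 held 2 miR-122 matches, GALNT10 also held 2, and GCNT4 held 1 match for each microRNA, while GCNT1, GALNT5, B3GNT2 and GCNT2 held none of these letters in that window. The matches of the first named genes are printed 5′ to 3′ with the match in capitals, since the log2 changes of these genes had opposite signs.
MGAT5, miR-122, + strand, chr2:134451373-134451394: gcaaacaagcccACACTCCagt
MGAT5, miR-122, + strand, chr2:134454082-134454103: tggagccttaagACACTCCctc
GALNT10, miR-122, + strand, chr5:154418659-154418680: agggagggacaaACACTCCcaa
GALNT10, miR-122, + strand, chr5:154419229-154419250: tcagtgcaagtcACACTCCaaa
GCNT4, miR-122, - strand, chr5:75028217-75028238: gtactgtgaccaACACTCCact
GCNT4, let-7, - strand, chr5:75028146-75028167: aggaaagactcaCTACCTCaga

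Among the 38 glycosyltransferases tested below, 7 (18.4%) held a miR-122 match and 6 (15.8%) a let-7 match. The shares were 8.38% and 11.2% of the 10608 tested protein-coding genes with a 3′ UTR, whose median 3′ UTR length was 1337 bases against 2077.5 for the glycosyltransferases. With a miR-122 match, the log2 changes were -1.18 for MGAT5, -1.23 for GALNT10, -0.27 for GALNT13, -0.13 for ST6GALNAC4, -0.10 for MGAT4A, -0.09 for B4GALT1 and 0.95 for GCNT4. With a let-7 match, they were -0.27 for GALNT13, -0.10 for MGAT4A, -0.10 for ST3GAL4, 0.01 for GALNT1, 0.21 for GCNT3 and 0.95 for GCNT4. A link between matches and changes was not tested. A match describes the letters only, and binding of either microRNA was not measured.

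Huh-7 cells transcribed most steps of both pathways. Within the family, 9 genes stood at 0 in each of the 7 libraries (B3GALT5, B3GNT3, B3GNT6, FUT7, FUT9, GCNT7, ST6GAL2, ST8SIA4 and ST8SIA6), and the value of 3 reads, the limit that a count of 0 allows, lay between 0.00654 and 0.112 FPKM for them. A further 38 were detected with a mean under 1 FPKM, and 38 averaged 1 FPKM or more, the filter for testing. Of those tested, GALNT5 and B3GNT8 passed through their siC values, since their siIGF2BP1 means were 0.99 and 0.971 FPKM. By siC level, 15 genes lay at 10 FPKM or more, 23 between 1 and 10, 34 above 0 and under 1, and 13 at 0.

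In siC, the most abundant transcript of the family was ST6GAL1, which adds α2,6-linked sialic acid to N-glycans and is characteristic of liver, with 34.7 ± 3.98 FPKM (SD, n = 3). GALNT1, one of the main initiators of O-glycans, followed with 27.3 ± 1.33 FPKM, then B4GALT1, the principal galactosyltransferase of N-glycan antennae, with 26.0 ± 5.73 FPKM. The MGAT enzymes of N-glycan antennae were next, with MGAT4A at 25.7 ± 3.55, MGAT4B at 22.6 ± 0.34 and MGAT2 at 22.2 ± 1.21 FPKM. MGAT5 was ninth in this order and GCNT1, which makes core 2, stood at place 33. Of the 37 neighbouring pairs in the order of the 38 tested genes, 7 had siC values that did not overlap, among them ST6GAL1 above GALNT1 and MGAT2 above B3GALT6, so the order is coarse. In siIGF2BP1, MGAT5 stood at place 19, GALNT10 moved from place 22 to 32, GALNT5 from 31 to 37, GCNT1 from 33 to 21 and GCNT4 from 26 to 17.

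**Figure D1:**
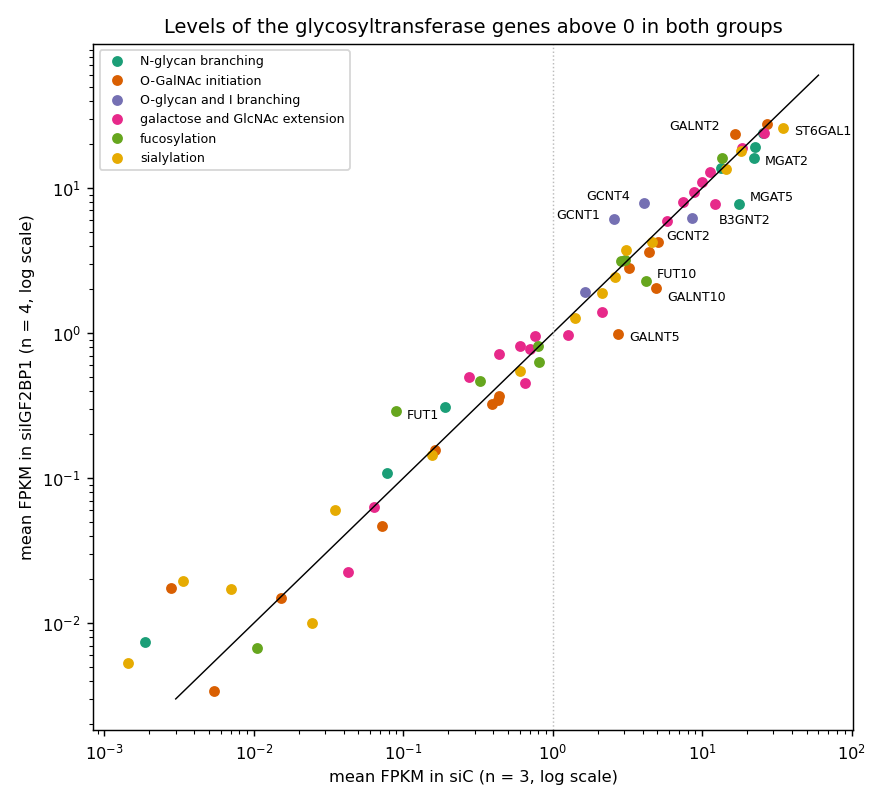
Mean FPKM of each gene in siC (horizontal axis, n = 3) against siIGF2BP1 (vertical axis, n = 4), both on log scales, for the 69 glycosyltransferase genes above 0 in both groups. Each point is 1 gene coloured by enzyme group, the diagonal marks equal levels and the dotted line 1 FPKM in siC. GCNT1 and GCNT4 lie above the diagonal and MGAT5, GALNT10 and GALNT5 below it.

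The siC and siIGF2BP1 libraries were compared with limma on log2(FPKM + 0.1), fitted over all 14839 genes that averaged 1 FPKM or more, with a Benjamini-Hochberg adjusted p of at most 0.01 as the threshold. Every log2 change given is siIGF2BP1 minus siC as fitted with this pseudocount, so that changes of weakly expressed genes appear too small. Of the 38 glycosyltransferases tested, 5 were lower in siIGF2BP1 (MGAT5, GALNT10, GALNT5, B3GNT2 and GCNT2), where 2.28% of all tested genes were called lower. Only GCNT1 was called higher, where 1.65% of all tested genes were. The family was proposed with this comparison known, because of MGAT5 and GCNT1. Nothing is read from these counts or from the calls of that pair. Counts at an unadjusted p under 0.05 are given below without the share over all tested genes, so nothing is read from them either. The median log2 change of the tested glycosyltransferases was -0.09, against -0.02 over all tested genes. No overlap between siC and siIGF2BP1 was seen for 12 glycosyltransferases that were lower and 5 that were higher, where 15.1% and 11.9% of all tested genes showed the same, and the other 21 overlapped.

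Some calls near the threshold were lost when 1 library was left out, with log2 changes of about the same size. Over all genes, calls fell from 583 to between 128 and 196 without any 1 library other than siC replicate 3. The GALNT10 and GALNT5 calls were lost without siC replicate 1, siC replicate 2 or siIGF2BP1 replicates 1, 3 or 4, where the adjusted p was 0.0111 to 0.0175 for GALNT10 (log2 change -1.17 to -1.27) and 0.0124 to 0.0282 for GALNT5 (-1.40 to -1.49). The B3GNT2 and GCNT2 calls were lost without any library other than siC replicate 3, with adjusted p of 0.0114 to 0.018 for B3GNT2 (log2 change -0.61 to -0.69) and 0.0176 to 0.0388 for GCNT2 (-0.42 to -0.49). Without siC replicate 3, the calls of GALNT10, GALNT5, B3GNT2 and GCNT2 remained and FUT10, MGAT4B, ST6GAL1, GALNT2 and GCNT4 passed as well, which gave 8 lower and 3 higher glycosyltransferases. In that fit 6.67% of all tested genes were called lower and 3.6% higher.

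**Figure D2:**
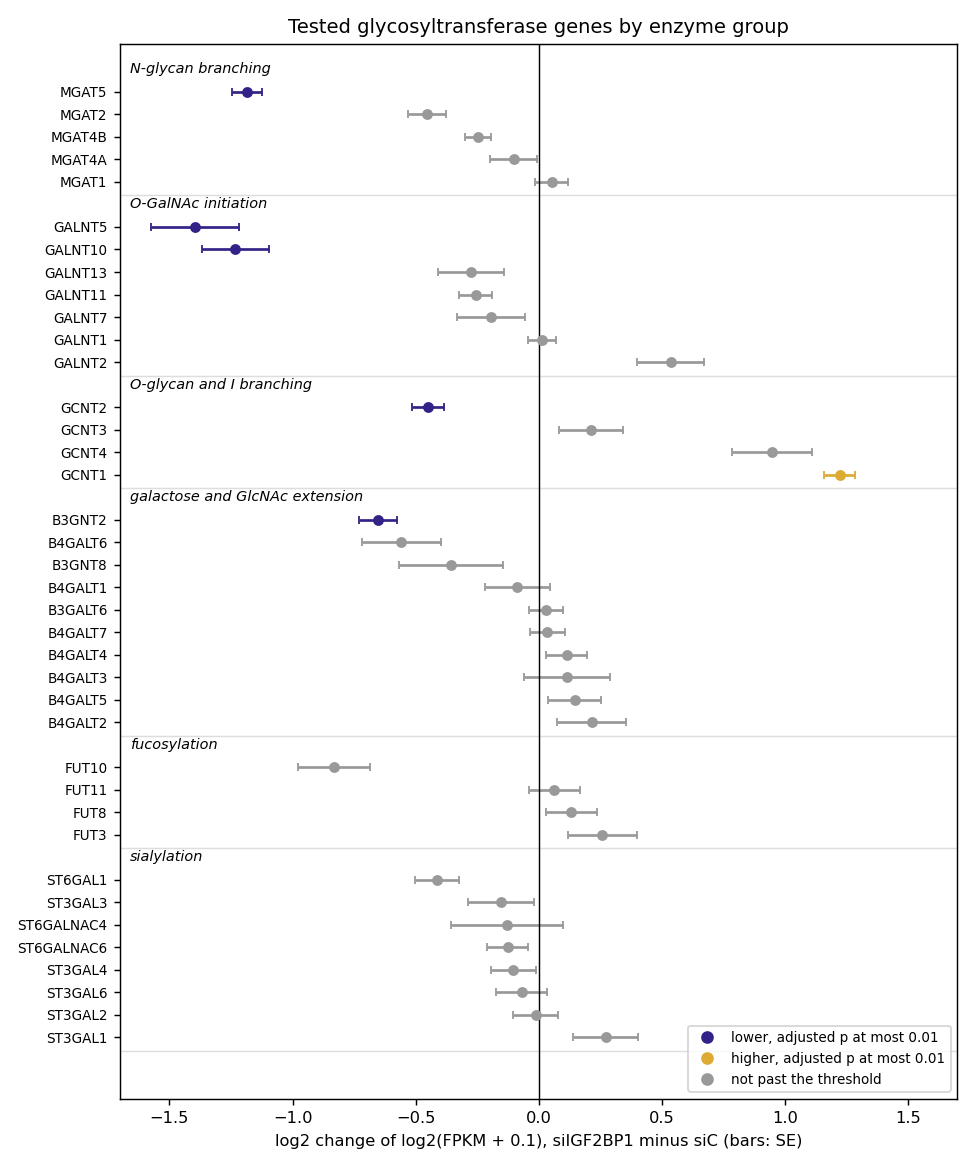
Log2 change (siIGF2BP1 minus siC, on log2(FPKM + 0.1)) of the 38 tested glycosyltransferase genes, with bars for the standard error, sorted within 6 enzyme groups. Dark points mark the 5 genes called lower, the yellow point GCNT1, called higher, and grey points the genes not past the threshold. MGAT5 and GCNT1 led to the choice of the family, so their calls are no evidence. Most genes lie near 0, and apart from that pair GALNT10, GALNT5 and FUT10 lie well below it and GCNT4 well above it.

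Among the 9 genes of N-glycan branching, 5 were tested. The 1 called lower was MGAT5, for which the family was proposed, so nothing is read from its call. At an unadjusted p under 0.05 there were 3 lower genes, and voom on the recovered reads called MGAT2 as well as MGAT5. None was called higher by any of these, and the median log2 change was -0.25. MGAT5 (ENSG00000152127, chr2:134119983-134454621, + strand, GRCh38) was at 17.2, 17.5 and 18.3 FPKM in siC and at 7.42, 8.09, 7.95 and 7.43 FPKM in siIGF2BP1. The groups lay far apart, with little spread within either, and 827 to 4806 reads stood behind each value. The siIGF2BP1 mean was 43.7% of the siC mean, a log2 change of -1.18 ± 0.06 (SE).

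MGAT2, which adds the GlcNAc that completes a biantennary N-glycan, was at 20.8, 22.8 and 22.9 FPKM in siC and at 16.9, 14.7, 17.3 and 15.7 FPKM in siIGF2BP1. All siIGF2BP1 values were below all siC values, and the log2 change of -0.45 ± 0.08 missed the threshold (limma, adjusted p = 0.0128) but passed it with voom (0.0082). MGAT4B, one of a pair of enzymes that add the β1,4 antenna, was at 22.2, 22.8 and 22.9 FPKM in siC against 18.6, 19.3, 19.6 and 18.7 FPKM, again without overlap, and its log2 change was -0.25 ± 0.05 (adjusted p = 0.0245, and 0.0091 without siC replicate 3). Exons of MGAT4B overlap SQSTM1 on the other strand, a gene at 49.6 to 69.0 FPKM here, and whether reads were counted by strand is not given in the sources used here.

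MGAT4A, the partner of MGAT4B, was at 23.0, 24.4 and 29.7 FPKM in siC and at 23.2, 25.3, 23.2 and 23.5 FPKM in siIGF2BP1. The groups overlapped, siC replicate 3 was the highest library, and the log2 change was -0.10 ± 0.10 (adjusted p = 0.574) with it and 0.01 without it. MGAT1, which opens the way to all hybrid and complex N-glycans, also overlapped between groups, from 12.4 to 13.9 FPKM in siC and from 13.1 to 14.6 FPKM in siIGF2BP1.

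Summed over the 9 MGAT genes, abundance was 97.4, 101.3 and 106 FPKM in siC and 80.2, 80.9, 83.0 and 79.6 FPKM in siIGF2BP1, so the siIGF2BP1 mean was 79.6% of that in siC. The sum includes MGAT5, for which the family was proposed, with means of 17.7 FPKM in siC and 7.72 FPKM in siIGF2BP1. MGAT5 held 17.2% to 17.7% of this sum in the siC libraries and 9.26% to 10.0% in the siIGF2BP1 libraries. The share of MGAT1 was 11.7% to 14.3% in siC and 16.2% to 17.5% in siIGF2BP1, although its own levels overlapped, because shares in 1 library depend on each other. In RNA from whole cultures, fewer cells that transcribe a gene and less RNA per cell cannot be told apart.

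The GALNT enzymes attach the first GalNAc of an O-glycan and differ in the sites they prefer. Of 19 genes 7 were tested, 2 were called lower and none higher (1 higher at an unadjusted p under 0.05, none with voom), and their median log2 change was -0.26. GALNT10 (ENSG00000164574, chr5:154190730-154420984, + strand) was at 5.14, 5.33 and 4.28 FPKM in siC and at 2.103, 1.65, 2.19 and 2.21 FPKM in siIGF2BP1. Even the lowest siC library, replicate 3, was well above the highest siIGF2BP1 library. The siIGF2BP1 mean was 41.5% of the siC mean, a log2 change of -1.23 ± 0.14 (limma, adjusted p = 0.0026). Its exons overlap those of MFAP3 on the same strand, whose values of 5.13 to 10.3 FPKM in siC and 5.71 to 6.38 FPKM in siIGF2BP1 overlapped between groups.

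GALNT5 (ENSG00000136542, chr2:157257705-157318491, + strand) was at 2.71, 2.69 and 2.80 FPKM in siC and at 1.20, 0.727, 1.06 and 0.972 FPKM in siIGF2BP1. The siC libraries lay close together and above all siIGF2BP1 libraries, among which replicate 2 was the lowest. The log2 change was -1.40 ± 0.18 (adjusted p = 0.0047, and 0.009 with no filter on low values), to 36.2% of the siC mean, with 86 to 587 reads behind each value.

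GALNT2, a widely expressed initiator, was at 18.1, 18.6 and 12.7 FPKM in siC and at 22.9, 22.9, 23.3 and 25.4 FPKM in siIGF2BP1. All siIGF2BP1 libraries were above all siC libraries, and siC replicate 3 was far below the other siC libraries. The log2 change was 0.54 ± 0.14 (adjusted p = 0.049) with that library and 0.36 (adjusted p = 0.0066) without it, so the call, though not the direction, depended on it. GALNT1 was at 25.8 to 28.2 FPKM in siC and 27.1 to 27.8 FPKM in siIGF2BP1, a log2 change of 0.01 ± 0.06.

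GALNT13 was at 3.94, 3.95 and 5.42 FPKM in siC and at 3.74, 3.65, 3.89 and 3.19 FPKM in siIGF2BP1, close to each other apart from siC replicate 3 (log2 change -0.27 ± 0.13, adjusted p = 0.255, and -0.13 without that library). The summed abundance of the 19 GALNT genes was 67.7, 68.0 and 61.5 FPKM in siC and 65.0, 65.6, 66.2 and 67.8 FPKM in siIGF2BP1. The sums overlapped, while the make-up of the sum differed. GALNT2 held 20.7% to 27.3% of it in siC and 34.9% to 37.4% in siIGF2BP1, and GALNT10 held 6.95% to 7.83% in siC and 2.51% to 3.32% in siIGF2BP1.

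**Figure D3:**
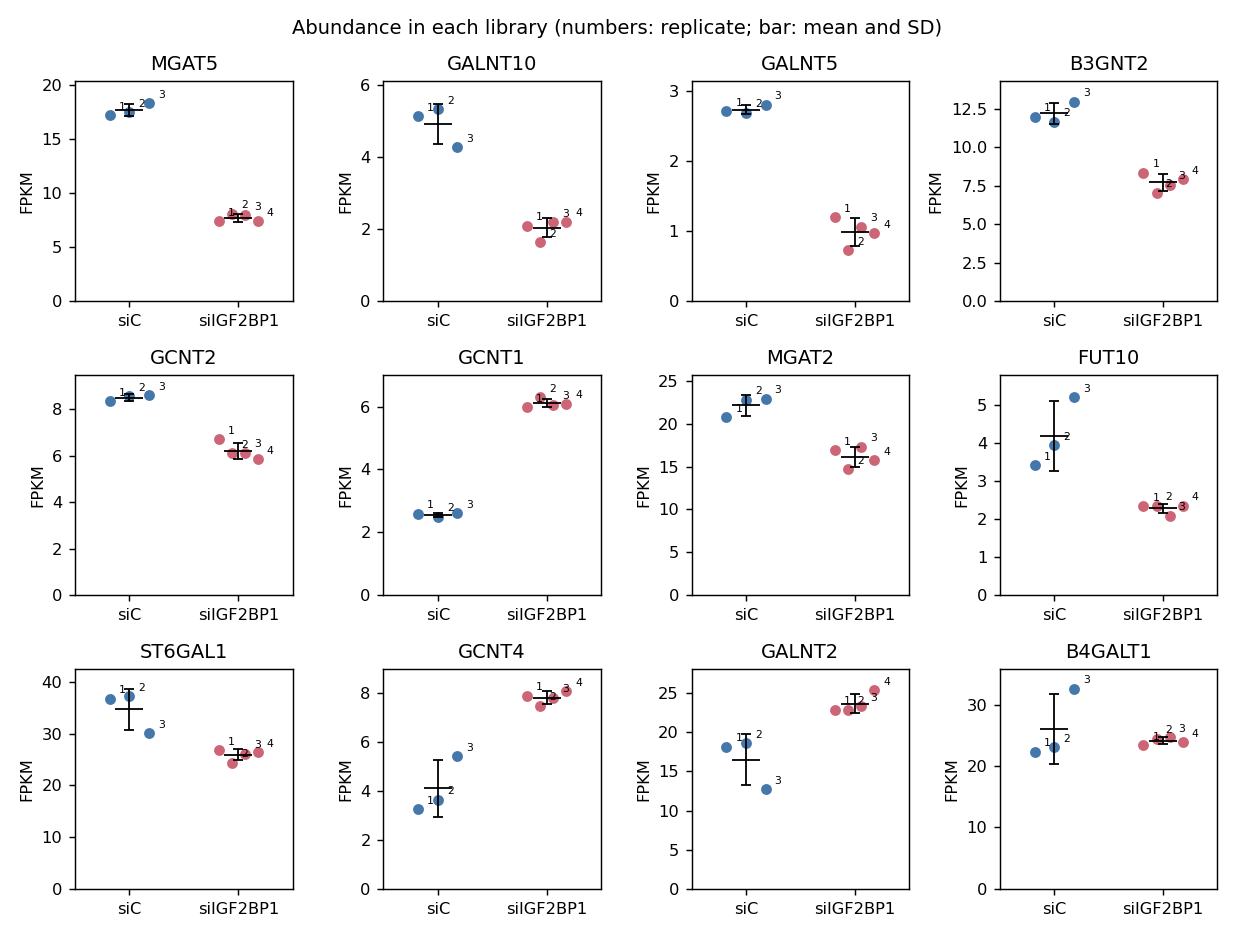
FPKM in every library for 12 glycosyltransferase genes, siC on the left (3 points) and siIGF2BP1 on the right (4 points), numbered by replicate, with the mean and SD as bars and each vertical axis starting at 0. The groups overlap only for B4GALT1, and siC replicate 3 departs from the other siC libraries for FUT10, ST6GAL1, GCNT4, GALNT2 and B4GALT1.

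The GCNT enzymes add β1,6-linked GlcNAc branches to O-glycans and polylactosamine. GCNT1 (ENSG00000187210, chr9:76419850-76651203, + strand), which makes the core 2 branch of O-glycans, was at 2.59, 2.49 and 2.61 FPKM in siC and at 5.99, 6.30, 6.06 and 6.09 FPKM in siIGF2BP1. Both groups were tight and far apart, and the siIGF2BP1 mean was 238% of the siC mean, a log2 change of 1.22 ± 0.06. Exons of GCNT1 overlap those of PRUNE2 on the other strand, a gene with few reads at 0.228 to 0.253 FPKM in siC and 0.433 to 0.619 FPKM in siIGF2BP1. The part of these overlapping reads in the GCNT1 values was not tested.

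GCNT4 (ENSG00000176928, chr5:75025346-75052558, - strand), another core 2 enzyme, was at 3.26, 3.64 and 5.43 FPKM in siC and at 7.91, 7.49, 7.83 and 8.09 FPKM in siIGF2BP1. The groups did not overlap, and siC replicate 3 was the closest to siIGF2BP1. The log2 change of 0.95 ± 0.16 missed the threshold (adjusted p = 0.0133) but passed it with voom (0.0033), and without siC replicate 3 it was 1.16 with an adjusted p of 0.0004. GCNT3, the core 2 and core 4 enzyme of mucous epithelia, was low, from 1.56 to 1.78 FPKM in siC and from 1.64 to 2.09 FPKM in siIGF2BP1, with overlap (log2 change 0.21 ± 0.13).

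GCNT2 (ENSG00000111846, chr6:10492223-10629368, + strand), which makes the branches of the blood group I antigen on polylactosamine, went the other way. It was at 8.33, 8.54 and 8.59 FPKM in siC and at 6.69, 6.10, 6.11 and 5.85 FPKM in siIGF2BP1, without overlap and with siIGF2BP1 replicate 1 the nearest to siC. The log2 change was -0.45 ± 0.07 (limma, adjusted p = 0.0072), and the call was also lost with no filter (adjusted p = 0.0151) and with quantile normalization (0.0103). GCNT2 held 47.2% to 52.9% of the summed GCNT abundance in siC and 26.7% to 29.5% in siIGF2BP1, while GCNT1 held 14.3% to 16.4% in siC and 26.4% to 28.8% in siIGF2BP1. The sum itself was 15.7, 16.5 and 18.2 FPKM in siC and 22.7, 21.9, 21.6 and 21.9 FPKM in siIGF2BP1, or 131% of the siC mean. It includes GCNT1, for which the family was proposed (means of 2.56 FPKM in siC and 6.11 FPKM in siIGF2BP1), and GCNT4 (4.11 and 7.83 FPKM).

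**Figure D4:**
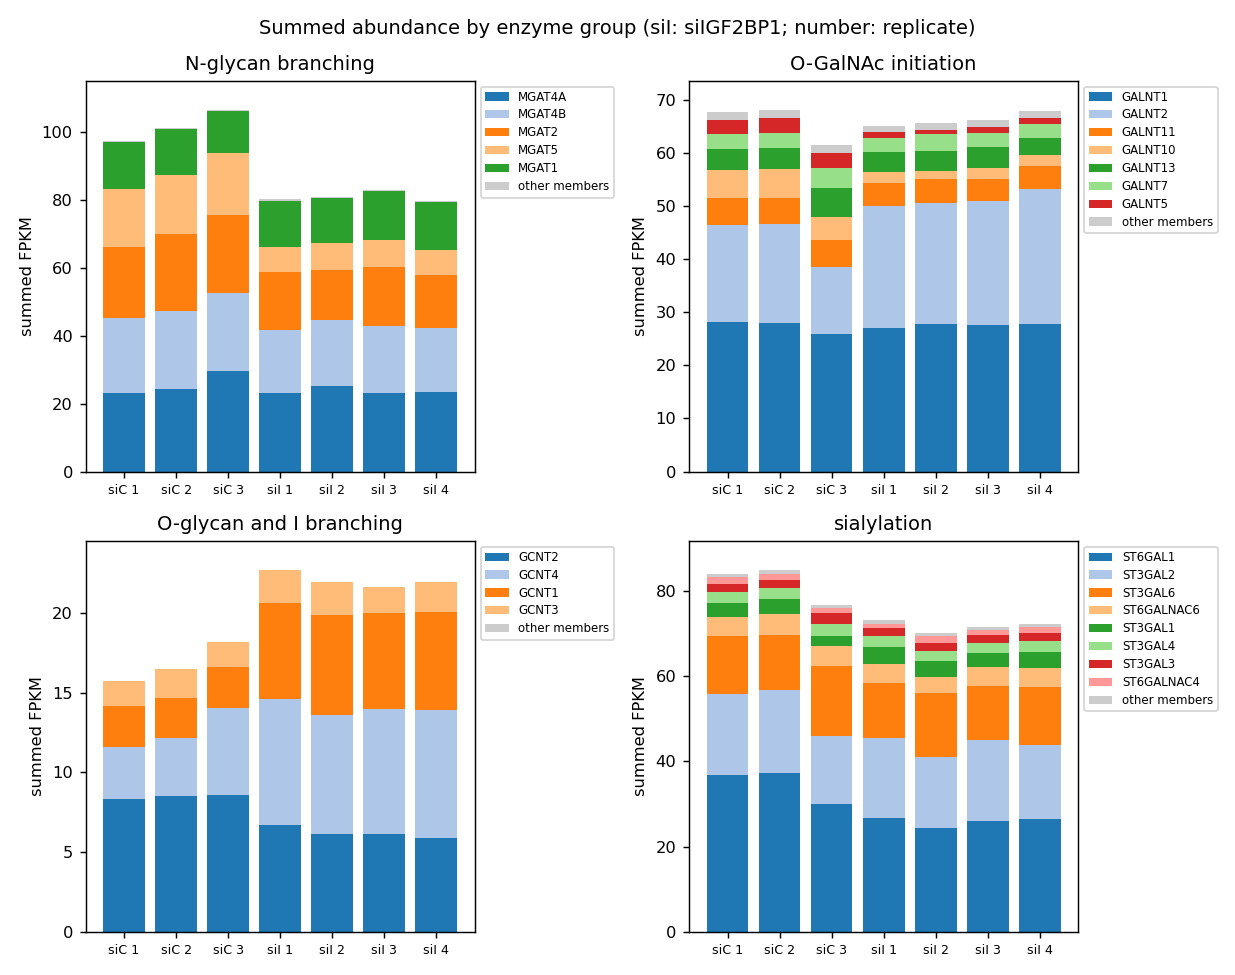
Summed FPKM (vertical axes, from 0) in each of the 7 libraries for 4 enzyme groups, with 1 colour per tested gene and grey for all other genes of the group. The MGAT sum, which includes MGAT5, is lower in all 4 siIGF2BP1 libraries, and the GCNT sum, which includes GCNT1, is higher in all 4. The GALNT sum overlaps between the groups and holds more GALNT2 and less GALNT10 in siIGF2BP1.

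Among the 21 genes that extend antennae with galactose and GlcNAc, 10 were tested, 1 was lower and none higher (none also at an unadjusted p under 0.05 or with voom), with a median log2 change of 0.03. B3GNT2 (ENSG00000170340, chr2:62196115-62224731, + strand), the main enzyme of polylactosamine synthesis, was at 12.0, 11.7 and 12.9 FPKM in siC and at 8.35, 7.06, 7.57 and 7.92 FPKM in siIGF2BP1. All siIGF2BP1 libraries were below all siC libraries, at 63.3% of the siC mean, and the log2 change was -0.65 ± 0.08 (adjusted p = 0.0033).

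B4GALT6, which with B4GALT5 makes lactosylceramide, was at 2.01, 1.80 and 2.59 FPKM in siC and at 1.27, 1.32, 1.55 and 1.48 FPKM in siIGF2BP1. The groups did not overlap, and the log2 change of -0.56 ± 0.16 missed the threshold (adjusted p = 0.0718). B4GALT5 itself overlapped between groups, from 8.90 to 11.4 FPKM in siC and from 9.71 to 11.8 FPKM in siIGF2BP1.

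B4GALT1 was at 22.3, 23.0 and 32.6 FPKM in siC and at 23.4, 24.5, 24.7 and 23.9 FPKM in siIGF2BP1. Its groups overlapped only through siC replicate 3, and the log2 change was -0.09 ± 0.13 with that library and 0.09 without it, neither past the threshold. B3GALT6, of the proteoglycan linker, lay at 17.5 to 19.9 FPKM in siC and 18.1 to 20.1 FPKM in siIGF2BP1 (log2 change 0.03 ± 0.07). The summed abundance of the extension enzymes was 104 to 112 FPKM in siC and 99.1 to 110 FPKM in siIGF2BP1, with overlap.

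None of the 4 fucosyltransferases tested among 11 passed the threshold in either direction, 1 had an unadjusted p under 0.05 and 1 was called with voom on the recovered reads. Both counts refer to FUT10, at 3.42, 3.94 and 5.21 FPKM in siC and at 2.33, 2.35, 2.09 and 2.35 FPKM in siIGF2BP1. The siC libraries were scattered and all above the siIGF2BP1 libraries. The log2 change was -0.83 ± 0.15 (adjusted p = 0.0142) and, without siC replicate 3, -0.67 (adjusted p = 0.0064).

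FUT3, which makes Lewis antigens, was the most abundant fucosyltransferase, with 15.2, 15.2 and 10.3 FPKM in siC and 15.9, 16.0, 16.4 and 15.6 FPKM in siIGF2BP1. The gap between siIGF2BP1 and siC replicates 1 and 2 was small, and the log2 change of 0.26 ± 0.14 was not past the threshold (adjusted p = 0.3) and was 0.07 without siC replicate 3. FUT3 is close in sequence to its neighbours FUT5 and FUT6, so reads may be split between them. FUT8, which adds the core fucose of N-glycans, overlapped between groups, from 2.67 to 3.23 FPKM in siC and from 2.94 to 3.41 FPKM in siIGF2BP1.

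Of the 20 sialyltransferases, 8 were tested and none passed the threshold in either direction, with limma as with voom, 1 (ST6GAL1) had an unadjusted p under 0.05, and the median log2 change was -0.12. ST6GAL1, the most abundant gene of the family in siC, was at 36.7, 37.2 and 30.1 FPKM in siC and at 26.8, 24.4, 26.1 and 26.4 FPKM in siIGF2BP1. All siIGF2BP1 libraries were below siC replicate 3, which was itself below the other siC libraries. The log2 change was -0.41 ± 0.09 (adjusted p = 0.0282) with that library and -0.51 (adjusted p = 0.0014) without it, so here too the call depended on it.

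ST3GAL1, which caps core 1 O-glycans and so competes with core 2 branching, was at 3.36, 3.48 and 2.49 FPKM in siC and at 4.13, 3.67, 3.48 and 3.68 FPKM in siIGF2BP1. The groups came very close, with siIGF2BP1 replicate 3 next to siC replicate 2, and the log2 change was 0.27 ± 0.13 (adjusted p = 0.25), or 0.12 without siC replicate 3. ST3GAL2, the second most abundant sialyltransferase, overlapped between the groups at 15.8 to 19.5 FPKM in siC and 16.7 to 18.9 FPKM in siIGF2BP1 (log2 change -0.01 ± 0.09, and -0.11 without siC replicate 3). Summed over the 20 genes, sialyltransferase abundance was 84.1, 84.9 and 76.8 FPKM in siC and 73.3, 70.2, 71.5 and 72.4 FPKM in siIGF2BP1, so the groups did not overlap, and the siIGF2BP1 mean was 87.7% of the siC mean. The means of the sum were 81.9 FPKM in siC and 71.8 FPKM in siIGF2BP1. Most of that difference lay in ST6GAL1, which was not called, with means of 34.7 FPKM in siC and 25.9 FPKM in siIGF2BP1.

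Genes that serve the same chains without belonging to these families were described with the same fit. A list of 51 such genes was written from general knowledge of the pathway, covering N-glycan trimming, O-glycan core 1, donor sugar synthesis, Golgi sugar transporters, Golgi retention of the enzymes, galectins and sialidases. Of these, 47 were tested, none was lower and 1 was higher at the threshold, where 2.28% and 1.65% of all tested genes were, so the counts are near that background, while an unadjusted p under 0.05 was reached by 5 that were lower and 11 that were higher, and voom called UGP2 and UAP1, chosen after its values were seen, higher. Their median log2 change was -0.01. The gene was UGP2, which makes UDP-glucose, at 13.8, 13.6 and 15.2 FPKM in siC and at 18.6, 18.4, 18.2 and 18.2 FPKM in siIGF2BP1. The groups did not overlap, and the log2 change was 0.37 ± 0.06 (adjusted p = 0.0098). This call was lost without any library other than siC replicate 3, where the adjusted p was 0.0342 to 0.0495.

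C1GALT1, which makes the core 1 structure that GCNT1 branches, overlapped between groups, with 6.83 to 8.46 FPKM in siC and 6.26 to 8.02 FPKM in siIGF2BP1. Its chaperone C1GALT1C1 did so too, at 18.1 to 20.2 FPKM in siC and 17.5 to 18.9 FPKM in siIGF2BP1. Both genes were singled out after their values were seen.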

How the data were processed

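Ribosomal RNA was depleted and directional libraries were sequenced on an Illumina NextSeq instrument by the authors, per the labels. The submitters' processing notes name cutadapt 1.14, HISAT2 2.1.0, SAMtools 1.5, featureCounts 1.5.3, edgeR 3.18.1 and the build hg38. The authors deposited 1 FPKM value per gene and library, on TMM-scaled library sizes, beside their own log2 fold change, p-value and FDR, which were not used. The strand setting of counting is not given in the sources used here. FPKM times gene length gave whole reads for 100% of values (tolerance 0.05 reads), hence the counts of reads behind values. These are reads, not molecules, so limits at 0 cover counting error only.

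The tests used limma 3.58.1 (R 4.3.3) on log2(FPKM + 0.1) for all genes averaging 1 FPKM or more, two-sided, with a trended prior variance, no covariate and Benjamini-Hochberg adjustment over every gene tested. The fit was tested on simulated data. Alternatives were a pseudocount of 1, no filter, an average of 5 FPKM or more, quantile normalization, median centring, voom on the reads, array weights, a replicate block and each library left out. Groups and replicate numbers come from the sample titles.

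The members, the gene lists and the rule for named genes were chosen with earlier results of these data known. The genes named by rule are IGF2BP1, MGAT5, GCNT1, members past the threshold, the 2 most abundant of each enzyme group in siC, the 8 largest changes among other tested members without overlap, and pathway genes past the threshold. Others serve as context and were chosen after their values were seen. Coordinates come from GENCODE v44, in which all 85 identifiers were found. Values of some genes of the lists are not reported here.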

Additional observations from a re-analysis of the deposited data

Results flagged for a closer look

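A single library lay apart from the rest of its group, by the ratio of its gap to the nearest value over the whole range above Dixon's 95% critical value, in 2 of 23 groups of 4 siIGF2BP1 values examined, where chance gives about 1.15. MGAT4A was at 23.2, 25.3, 23.2 and 23.5 FPKM in siIGF2BP1, and replicate 2 was high with a ratio of 0.839. FUT10 was at 2.33, 2.35, 2.09 and 2.35 FPKM, and replicate 3 was low with a ratio of 0.936, still below all siC values. The siC group of 3 was not examined in this way.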

How the results depend on the processing

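The 5 lower and 1 higher glycosyltransferases became 11 and 5 with array weights (whose estimation did not converge), 1 to 8 and 1 to 3 with 1 library left out, and 0 and 0 under the replicate block, which called 0 of all tested genes. Pairing of same-numbered libraries is not stated in the sample titles and was not assumed. Their deviations correlated at -0.026, -0.118 and -0.111, which cannot show that the libraries were prepared without pairs. The count of higher genes was 0 at a mean of at least 5 FPKM, which removes GCNT1 from testing, and 2 with voom, which called 7 lower. The single pathway call became 2 with a pseudocount of 1, median centring or quantile normalization, 0 with no filter, 3 at a mean of at least 5 FPKM or with voom, 22 with array weights, 0 under the replicate block and 0 to 8 with 1 library left out. The median log2 change of -0.09 was -0.02072 with no filter, 0.01224 at a mean of at least 5 FPKM, -0.04873 with quantile normalization and -0.119 to -0.04337 with 1 library left out. Signs turned for genes near 0: GALNT1 was -0.02776 and B4GALT1 0.05479 with array weights, and ST3GAL2 was 0.01655 with median centring and 0.02551 with quantile normalization. With 1 library left out, log2 changes ran from -0.1765 to 0.007003 for MGAT4A, -0.02858 to 0.03554 for GALNT1, -0.185 to 0.08636 for B4GALT1, -0.007388 to 0.08194 for B3GALT6 and -0.1098 to 0.04364 for ST3GAL2. Over all genes, calls went from 583 to 842 with voom, 352 with no filter, 468 at a mean of at least 5 FPKM, 5414 with array weights and 128 to 1521 with 1 library left out (1521 without siC replicate 3). The depth limits genes with few reads, such as GALNT5 and FUT1.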

Other observations

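Some glycosyltransferases under the filter had groups that did not overlap, at few reads. FUT1, which makes the H antigen, was at 0.0738, 0.0935 and 0.1 FPKM in siC and at 0.33, 0.209, 0.295 and 0.319 FPKM in siIGF2BP1, with 6 to 26 reads per library (adjusted p = 0.0693 with no filter). MGAT3, which adds the bisecting GlcNAc of N-glycans, was at 0.201, 0.206 and 0.16 FPKM in siC and at 0.445, 0.283, 0.29 and 0.212 FPKM in siIGF2BP1, with 12 to 44 reads (adjusted p = 0.514 with no filter). B3GALT1 was at 0.602, 0.576 and 0.77 FPKM in siC and at 0.444, 0.471, 0.533 and 0.348 FPKM in siIGF2BP1, with 23 to 94 reads (adjusted p = 0.427 with no filter). None of them passed the threshold, and they were named after their values were seen.

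Among the galectins, which bind galactose-ended chains, LGALS3 was at 18.2, 16.7 and 17.6 FPKM in siC and at 23.4, 20.6, 23.5 and 24.2 FPKM in siIGF2BP1. LGALS8 was at 3.22, 3.31 and 3.52 FPKM in siC and at 2.44, 2.78, 2.77 and 2.64 FPKM in siIGF2BP1. The groups overlapped for neither gene and neither passed the threshold (limma, adjusted p = 0.0194 for LGALS3 and 0.054 for LGALS8). Both were named after their values were seen.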
